A study of Mus musculus with 18 samples.

Results

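The 31 genes described here encode the enzymes of sterol and fatty acid synthesis and the proteins that control them. They were matched by symbol in the deposited count table, where all 31 were found among 55416 gene IDs, and all 31 were among the 17174 genes tested between models. Bulk poly(A)+ RNA-seq was made of the peritumoral area, the brain tissue resected next to metastases, with 6 mouse brains in each of 3 tumour models. The melanoma model received B16-F10-BrM4 cells, the breast cancer model EO771-BrM3 cells and the lung cancer model 482N1 cells. All brains were labelled WT and collected 10 days after injection of 40000 cells. Nothing in the sources used here gives the strain, age, sex or route of injection. Each model is 1 cell line, so that tumour type and line cannot be told apart, and no brain without a tumour was sampled, so every difference below is one between models. Libraries are named by their number, 1 to 6 for melanoma, 14 to 19 for breast, and 7 to 11 and 13 for lung.

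Cholesterol is built from acetyl-CoA through the mevalonate pathway to squalene, which is closed to lanosterol and trimmed to cholesterol, while fatty acids are built by acetyl-CoA carboxylase and fatty acid synthase and then elongated and desaturated. Both routes are under the SREBP transcription factors, which are held in the endoplasmic reticulum by Scap and the Insig proteins when sterols are plentiful and released for cleavage when sterols are scarce. The brain makes its own cholesterol, because lipoproteins do not cross the blood-brain barrier, with astrocytes and myelinating oligodendrocytes as main producers, and dividing cells need new sterols and fatty acids for membranes.

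The RefSeq promoter table (GRCm38.p6) held 24 of the 31 genes. Fdft1, Fdps, Fads1, Sqle, Stard4, Scd1 and Scd2 had no entry. The 250 bases before the start are printed for Dhcr7, Insig1, Nsdhl and Lss, which had the smallest p-values among the genes higher in melanoma than in both other models, for Ggps1, which passed in no comparison of models, and for Hmgcs1, which was added after its motif match was seen. Capitals mark matches on either strand to TCACNCCAC (a consensus of the sterol regulatory element bound by SREBP), CCAAT (the NF-Y box) and GGGCGG (the Sp1 box), and no match in these windows overlaps another. Dhcr7, at chr7:143822917-143823166 on the plus strand, is shown for the first of its 3 annotated starts; Insig1 lies at chr5:28071162-28071411, Nsdhl at chrX:72918271-72918520, Lss at chr10:76531355-76531604 and Hmgcs1 at chr13:119690101-119690350, all on the plus strand, and Ggps1 at chr13:14063489-14063738 on the minus strand.
Dhcr7: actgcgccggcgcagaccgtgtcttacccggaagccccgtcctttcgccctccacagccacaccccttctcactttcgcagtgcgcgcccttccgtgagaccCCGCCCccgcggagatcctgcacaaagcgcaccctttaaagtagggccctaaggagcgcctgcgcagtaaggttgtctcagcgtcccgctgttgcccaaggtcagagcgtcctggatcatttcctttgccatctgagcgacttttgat
Insig1: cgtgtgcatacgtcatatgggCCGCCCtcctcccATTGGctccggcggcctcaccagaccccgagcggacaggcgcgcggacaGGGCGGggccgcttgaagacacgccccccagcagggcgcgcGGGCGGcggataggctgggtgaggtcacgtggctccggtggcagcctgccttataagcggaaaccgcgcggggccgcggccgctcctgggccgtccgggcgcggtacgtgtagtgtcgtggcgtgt
Nsdhl: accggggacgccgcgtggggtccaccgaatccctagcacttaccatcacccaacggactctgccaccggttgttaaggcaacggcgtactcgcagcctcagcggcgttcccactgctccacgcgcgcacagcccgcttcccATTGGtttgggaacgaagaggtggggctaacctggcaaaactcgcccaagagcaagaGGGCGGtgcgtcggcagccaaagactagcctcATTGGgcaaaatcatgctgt
Lss: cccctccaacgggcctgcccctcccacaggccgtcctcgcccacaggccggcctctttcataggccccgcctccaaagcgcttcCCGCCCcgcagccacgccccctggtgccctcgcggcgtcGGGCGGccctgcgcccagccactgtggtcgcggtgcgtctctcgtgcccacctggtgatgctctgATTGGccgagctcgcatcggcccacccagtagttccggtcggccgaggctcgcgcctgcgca
Ggps1: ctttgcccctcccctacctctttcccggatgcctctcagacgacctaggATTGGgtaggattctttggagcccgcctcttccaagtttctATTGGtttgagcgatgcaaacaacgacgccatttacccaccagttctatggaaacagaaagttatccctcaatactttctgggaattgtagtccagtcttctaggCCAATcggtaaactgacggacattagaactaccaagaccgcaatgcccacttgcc
Hmgcs1: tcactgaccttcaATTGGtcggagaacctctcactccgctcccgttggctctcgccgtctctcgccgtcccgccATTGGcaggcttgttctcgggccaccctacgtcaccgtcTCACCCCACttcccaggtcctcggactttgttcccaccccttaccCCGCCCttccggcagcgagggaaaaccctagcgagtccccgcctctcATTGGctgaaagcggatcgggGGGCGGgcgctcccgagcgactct

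Of the 24 genes with a window, 19 held a CCAAT match and 19 a GGGCGG match in at least 1 window. Counted over windows, CCAAT was in 20 of 29 (69.0%) against 33.8% of all 32851 windows of this length, and GGGCGG in 21 of 29 (72.4%) against 32.7%. TCACNCCAC was in 1 of 29 windows (3.45%) against 1.05% of all windows. This single match was in the window of Hmgcs1, where it began 137 bases before the start. The Ggps1 window held 3 CCAAT matches and no GGGCGG match, and the printed Dhcr7 window 1 GGGCGG match and no CCAAT match. These counts describe letters in the reference and no binding was measured.

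Totals were 10669355 to 13396710 counts in the melanoma libraries, 7366250 to 13544054 in the breast libraries and 12070005 to 14533877 in the lung libraries. Levels are given as CPM on library sizes scaled by TMM. A group of 3 libraries was poor in long transcripts: the slope of log2 CPM on log2 transcript length was 0.42 in melanoma library 3, 0.41 in breast library 18 and 0.46 in breast library 19, against 0.56 to 0.88 in the other 15, and counts are also given without these 3. Markers of tumour cells were read in the tissue. The sum of 13 melanocyte genes was 4227 to 25372 CPM in melanoma libraries, 40.4 to 77.6 in breast libraries and 44.8 to 59.4 in lung libraries, and the sum of 9 epithelial genes was 5.41 to 6.27, 66.9 to 167 and 310 to 1320 CPM in the same order, with Cldn4 at 0 in every melanoma and breast library. Which cells, tumour or brain, the reads of a sterol gene came from was not tested, and in bulk tissue fewer cells of a type and less RNA per cell cannot be told apart. Astrocyte genes (10) summed to 2648 to 3964 CPM in melanoma libraries, 4439 to 5491 in breast libraries and 4526 to 6467 in lung libraries. Oligodendrocyte genes (12) overlapped between the models, at 4878 to 7026, 4596 to 7627 and 4961 to 7551 CPM in melanoma, breast and lung libraries. The part of astrocytes in the values below was not tested. With the oligodendrocyte list as a covariate 10 of the 31 genes were higher in melanoma than in lung libraries, 23 were higher in melanoma than in breast libraries and 15 were lower in breast than in lung libraries, against 10, 21 and 12 without it. Over all genes the same fit gave 1686, 2780 and 1592 in that order, against 1461, 1676 and 1229 without the covariate.

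**Figure D1:**
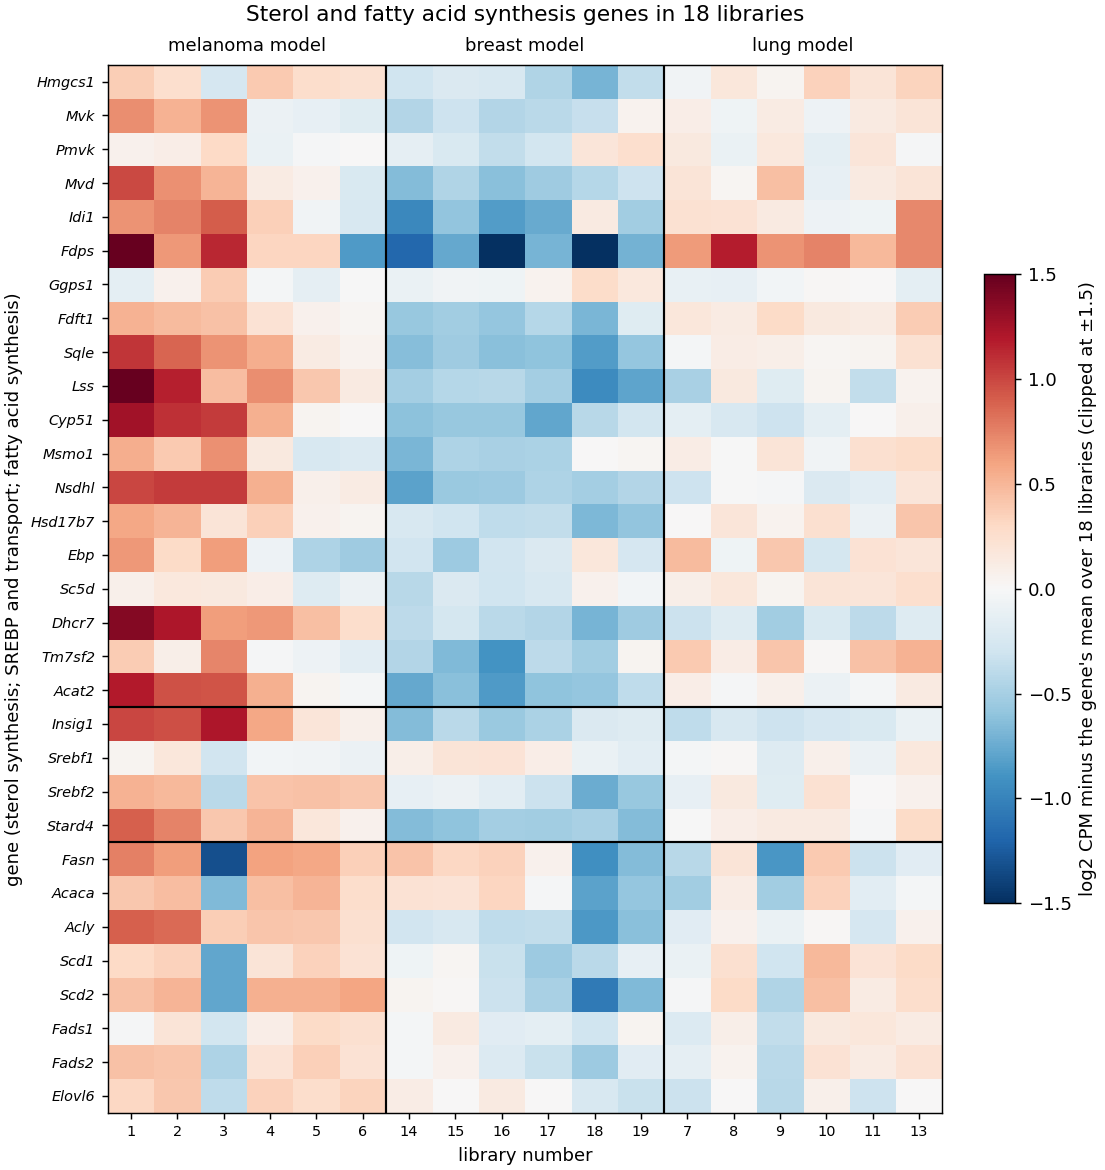
Level of the 31 genes (rows, in pathway order) in the 18 libraries (columns, by model), as log2 CPM minus the gene's mean over all libraries, clipped at 1.5 either way. Cyp51, Nsdhl, Acat2 and Insig1 are highest in melanoma libraries 1 to 3, and melanoma library 3 is low for Fasn, Acaca, Scd1 and Scd2.

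Compared per kilobase of transcript, the 31 genes spanned a wide range within each model. Scd2, the brain's main stearoyl-CoA desaturase, was the most abundant in each model, with 259 CPM per kb in melanoma, 156 in breast and 220.2 in lung libraries. In melanoma it was followed by Acly (90.2 CPM per kb), which cuts citrate into acetyl-CoA, and by Hmgcs1 (89.2 CPM per kb), which makes the precursor of mevalonate. Cyp51 ranked 7 of 31 in melanoma, 12 in breast and 10 in lung libraries. At the low end were Idi1, the isomerase that makes dimethylallyl pyrophosphate, with 2.30 CPM per kb in melanoma, 1.15 in breast and 1.95 in lung libraries, and Fdps, farnesyl pyrophosphate synthase, with 0.543, 0.134 and 0.511. Fdps rested on 6 to 48 counts in a melanoma library, 1 to 7 in a breast library and 16 to 26 in a lung library, so that its values carry a large counting error. Processed pseudogenes, which are copies of a messenger RNA inserted back into the genome, are annotated for both genes and took reads of their own: over the 18 libraries 5 copies of Fdps held 6953 counts beside 265 for Fdps, and 2 copies of Idi1 held 2063 beside 1193 for Idi1. A copy here shares at least 25% of its 31-base words with the gene, and the sources used here do not say how shared reads were counted, so the levels and ranks of both genes are uncertain. With the copies' counts added, Fdps had a median of 46.9 CPM in melanoma, 19.1 in breast and 32.4 in lung libraries, and Idi1 one of 19.3, 8.38 and 15.2 CPM. Acaca likewise had 1 copy with 5930 counts beside its own 8059, and Fdft1 1 copy with 2177 beside 21568. Tm7sf2 overlaps Vps51 on the same strand, and Fdft1, Cyp51, Ggps1, Srebf1 and Mvd overlap Ctsb, Akap9, Arid4b, Rai1 and Gm20388 on the opposite strand. The libraries were stranded per the labels' protocols, but the sources used here do not give the strand setting of the counting. Scd1 and Scd2 are close paralogs that counting could have split. The protein-coding gene Acat3 shares 53.6% of its 31-base words with Acat2 and held 877 counts beside 10355 for Acat2, and these were not added.

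Of the 31 genes, 10 were higher in melanoma than in lung libraries and none was lower (edgeR's quasi-likelihood test, Benjamini-Hochberg adjusted p under 0.05 over all genes). Over all 17174 genes 8.51% were higher and 14.7% lower. The genes that rose were 6 of 19 sterol enzymes (Dhcr7, Lss, Cyp51, Nsdhl, Acat2 and Sqle), Insig1 and Stard4 of the 4 regulators and transporters, and Acly and Elovl6 of the 8 fatty acid genes. The median log2 fold change of the 31 was 0.24, against 0.02 over all genes tested. Dhcr7, Insig1 and Acly did not overlap between the models, where 4.69% of all genes were higher and 9.63% lower without overlap. Against breast libraries the melanoma libraries were higher in 21 of the 31 genes and lower in none, beside 9.76% and 19.2% of all genes. These were 15 of 19 sterol enzymes, 3 of 4 regulators and transporters and 3 of 8 fatty acid genes, the median log2 fold change was 0.66 against 0.04 over all genes, and 12 genes did not overlap, beside 4.98% of all genes. No gene was lower in melanoma at an unadjusted p under 0.05 in either comparison (0 of 31), nor by DESeq2. Both comparisons use the same 6 melanoma libraries.

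**Figure D2:**
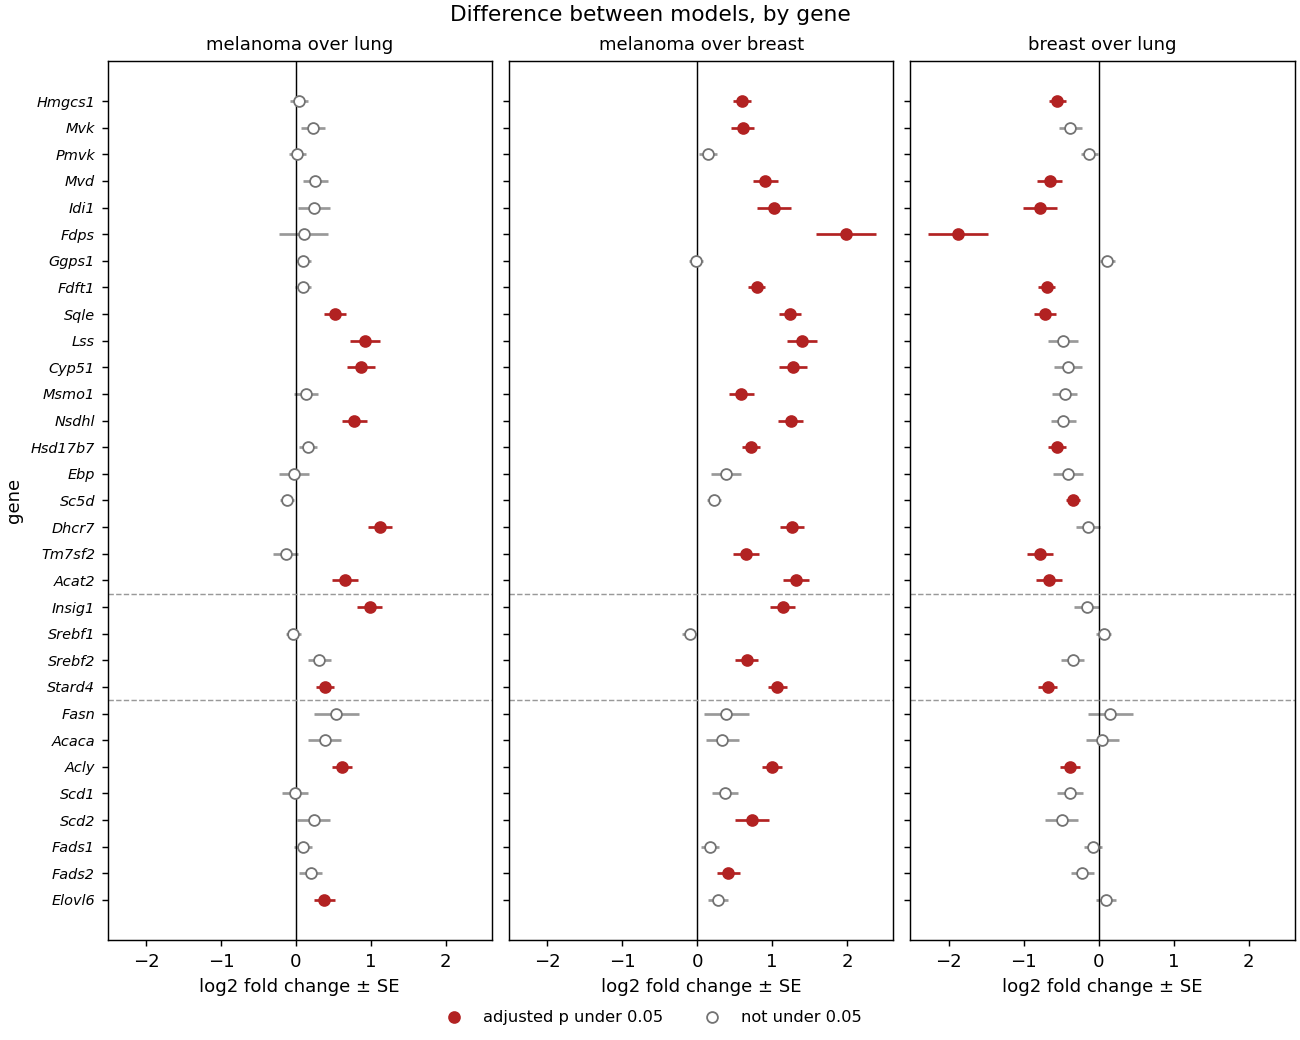
Log2 fold change with its standard error for each gene in the 3 comparisons of models, filled where the adjusted p was under 0.05; dashed lines separate sterol enzymes, regulators and transporters, and fatty acid genes. Dhcr7 stands at 1.13 over lung and 1.27 over breast, and no filled point lies below 0 in the 2 melanoma panels.

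The steps after squalene held most of the genes higher than in both other models. Dhcr7, a reductase at the end of the pathway, was at 52.8 to 114 CPM in melanoma libraries (median 68.5), 27.1 to 36.7 in breast libraries (32.9) and 30.5 to 38.5 in lung libraries (36.4). Every melanoma library was above every other library. The log2 fold change was 1.13 ± 0.16 (SE) over lung (adjusted p = 2.25e-05) and 1.27 ± 0.16 over breast (adjusted p = 4.66e-06). Lss, which closes the ring of lanosterol, was at 47.1 to 123 CPM in melanoma libraries (median 64.4), 22.4 to 32.1 in breast libraries (30.1) and 30.7 to 47.6 in lung libraries (40.9). It was clear of breast, and only melanoma library 6 fell within the lung range. Its log2 fold change was 0.93 ± 0.20 over lung (adjusted p = 0.00153) and 1.40 ± 0.20 over breast (adjusted p = 2.09e-05).

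Cyp51, the lanosterol demethylase, was at 142 to 338 CPM in melanoma libraries (median 249), 82.3 to 117 in breast libraries (95.7) and 114 to 149 in lung libraries (128). Melanoma libraries 5 and 6 lay within the lung range and the other 4 above it. This was a log2 fold change of 0.87 ± 0.19 over lung (adjusted p = 0.00176) and 1.28 ± 0.19 over breast (adjusted p = 3.19e-05). Nsdhl, which takes part in removing the methyl groups of lanosterol, was at 43.5 to 86.0 CPM in melanoma libraries (median 71.6), 23.7 to 30.6 in breast libraries (28.7) and 33.5 to 46.8 in lung libraries (39.0). Again libraries 5 and 6 overlapped with lung and none overlapped with breast. The log2 fold change was 0.78 ± 0.16 over lung (adjusted p = 0.00134) and 1.25 ± 0.17 over breast (adjusted p = 8.63e-06).

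At the entry, Sqle, the epoxidase that commits squalene to sterols, was at 115 to 233 CPM in melanoma libraries (median 170.0), 62.4 to 77.0 in breast libraries (72.7) and 109 to 130.5 in lung libraries (117). It was clear of breast in all 6 melanoma libraries and overlapped with lung in libraries 5 and 6. This was a log2 fold change of 0.52 ± 0.14 over lung (adjusted p = 0.0111) and 1.23 ± 0.15 over breast (adjusted p = 1.83e-06). Acat2, the cytosolic thiolase that joins acetyl-CoA units, was at 42.3 to 98.4 CPM in melanoma libraries (median 72.6), 23.8 to 32.9 in breast libraries (28.0) and 40.6 to 47.3 in lung libraries (43.7). The same pattern held, with 4 melanoma libraries above all lung libraries. The log2 fold change was 0.65 ± 0.17 over lung (adjusted p = 0.00825) and 1.31 ± 0.18 over breast (adjusted p = 8.64e-06).

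Of the mevalonate steps proper, 5 passed against breast and none against lung. Hmgcs1 (log2 fold change 0.59), Mvk (0.61), Mvd (0.91), Idi1 (1.02) and Fdps (1.98) were higher in melanoma than in breast libraries, as was Fdft1 (0.79), which makes squalene. Over lung the same 6 genes had log2 fold changes of 0.04 to 0.26, none past the threshold. With the counts of its pseudogenes added, an alternative chosen after seeing the data, Fdps had 1.34 ± 0.23 over breast (adjusted p = 0.000118) and 0.59 ± 0.22 over lung (adjusted p = 0.0607). After squalene, Hsd17b7 (0.72), Tm7sf2 (0.65) and Msmo1 (0.59) were likewise higher than in breast libraries, with 0.17, -0.13 and 0.13 over lung. Pmvk, Ggps1, Ebp and Sc5d passed in neither comparison, with -0.11 to 0.10 over lung and -0.02 to 0.38 over breast.

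Among the regulators, Insig1, the endoplasmic reticulum anchor that retains SREBP and is itself an SREBP target, was at 99.97 to 219 CPM in melanoma libraries (median 163), 60.1 to 82.6 in breast libraries (69.6) and 72.6 to 88.5 in lung libraries (79.7). All 6 melanoma libraries were above all others. This was a log2 fold change of 0.98 ± 0.16 over lung (adjusted p = 0.000146) and 1.14 ± 0.17 over breast (adjusted p = 2.34e-05). Stard4, a carrier of cholesterol between membranes, was at 54.3 to 96.5 CPM in melanoma libraries (median 71.0), 32.9 to 36.9 in breast libraries (35.1) and 51.0 to 63.2 in lung libraries (56.2). Melanoma was clear of breast and overlapped with lung in libraries 5 and 6. The log2 fold change was 0.39 ± 0.12 over lung (adjusted p = 0.0253) and 1.07 ± 0.12 over breast (adjusted p = 1.51e-06).

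Of the messages of the SREBP factors themselves, that of Srebf2 passed in 1 comparison and that of Srebf1 in none. Srebf2, which encodes the SREBP that acts mainly on sterol genes, averaged 280.5 ± 56.1 CPM in melanoma, 177 ± 30.8 in breast and 226 ± 24.6 in lung libraries (SD, n = 6 each). It was higher than in breast (log2 fold change 0.66 ± 0.15, adjusted p = 0.00215) and did not pass against lung (0.31 ± 0.15, adjusted p = 0.157). Srebf1, whose products act mainly on fatty acid genes, averaged 90.4 ± 9.38, 96.8 ± 9.88 and 92.5 ± 7.88 CPM in the same order and passed in no comparison.

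Among the fatty acid genes Acly led. It was at 322 to 507 CPM in melanoma libraries (median 362), 149.8 to 230.1 in breast libraries (210.2) and 229.6 to 284 in lung libraries (265), with every melanoma library above all others. This was a log2 fold change of 0.61 ± 0.13 over lung (adjusted p = 0.00182) and 1.00 ± 0.13 over breast (adjusted p = 9.12e-06). Scd2 was at 639 to 1646 CPM in melanoma libraries (median 1568), 524 to 1131 in breast libraries (832) and 799 to 1496 in lung libraries (1251). Its lowest melanoma value was that of library 3, below every lung library, while the other 5 were at 1482 or more. Scd2 was higher in melanoma than in breast (log2 fold change 0.73 ± 0.22, adjusted p = 0.0181) and did not pass against lung (0.24 ± 0.22, adjusted p = 0.531). Scd1, its paralog, was at 106 to 230.5 CPM in melanoma libraries (median 218), 125 to 185 in breast libraries (156) and 148 to 254 in lung libraries (213), so that all models overlapped, and it passed in no comparison.

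Of the other fatty acid genes, Elovl6 and Fads2 passed narrowly, in 1 comparison each. Elovl6, an elongase, was higher in melanoma than in lung (log2 fold change 0.38 ± 0.14, adjusted p = 0.0493), and Fads2, a desaturase of polyunsaturated fatty acids, was higher in melanoma than in breast (0.41 ± 0.15, adjusted p = 0.0455). Fasn, the synthase, averaged 381 ± 135 CPM in melanoma, 291 ± 100.01 in breast and 262 ± 80.1 in lung libraries, and Acaca, the carboxylase, 43.0 ± 10.5, 34.0 ± 9.89 and 33.0 ± 7.88 CPM. Neither passed in any comparison, nor did Fads1.

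**Figure D3:**
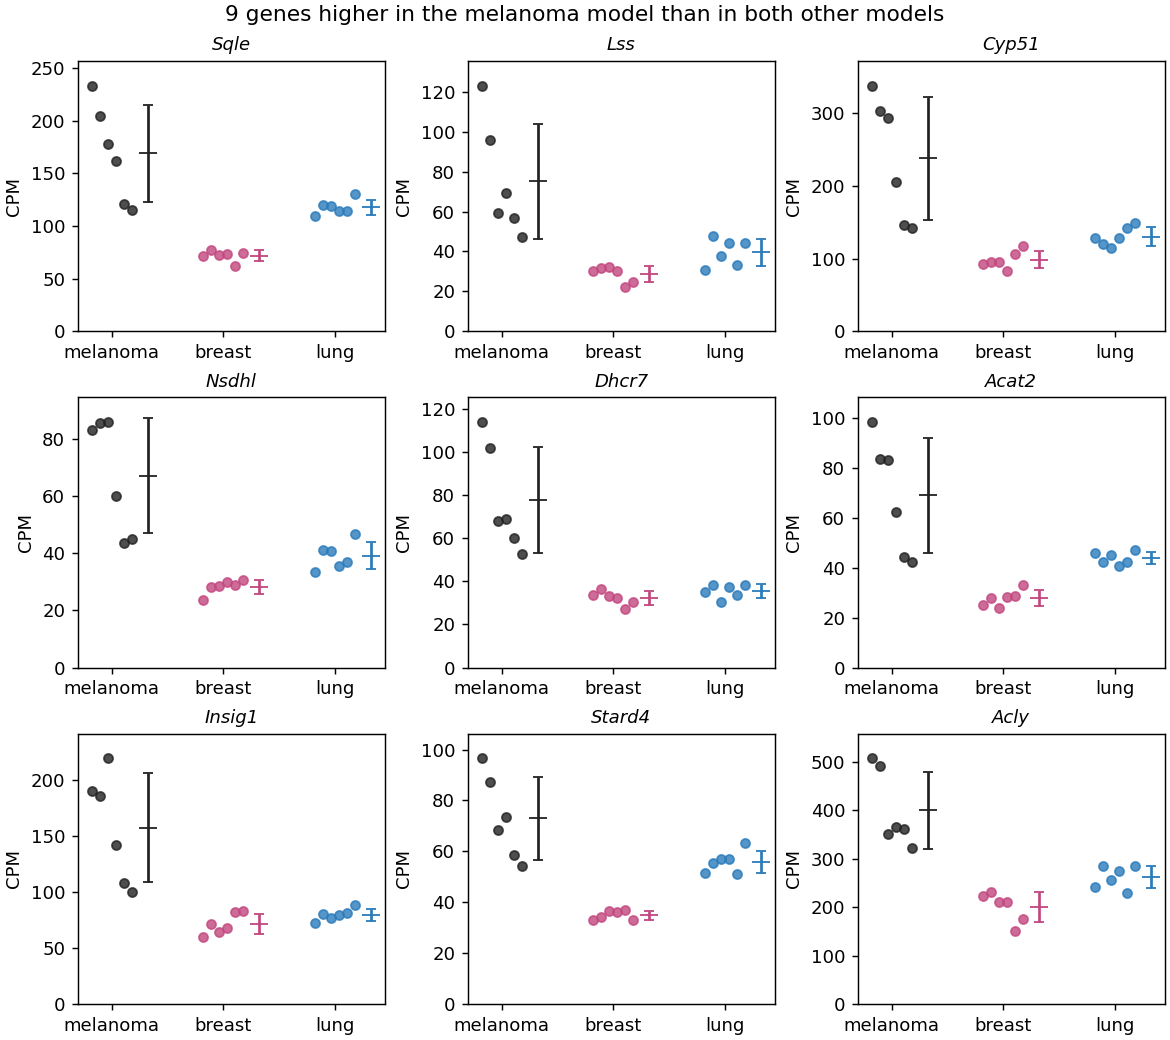
Levels (CPM) of the 9 genes higher in melanoma than in both other models, 1 point per library in order of library number, with mean and SD at the right of each group (n = 6). Dhcr7, Insig1 and Acly are clear of both other models, and the melanoma points of Cyp51, Nsdhl, Acat2 and Sqle spread from the lung range upwards.

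Leaving out 1 library at a time gave 8 to 13 genes higher in melanoma than in lung and 20 to 25 higher than in breast. Over all genes these fits gave 1176 to 1793 and 1435 to 4020. Without the 3 libraries poor in long transcripts there were 15 and 25, beside 2367 and 2605 of all genes, against 1461 and 1676 with them. Elovl6 lost its call against lung in 12 of the 18 fits with 1 library left out and Stard4 in 4, and Fads2 lost its call against breast in 8.

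The breast libraries were lower than the lung libraries in 12 of the 31 genes and higher in none, beside 7.16% and 11.2% of all genes; 0 were higher at an unadjusted p under 0.05, and 0 by DESeq2. The 12 were 10 of 19 sterol enzymes, Stard4 and Acly, the median log2 fold change of the 31 was -0.41 against -0.02 over all genes, and 9 did not overlap, beside 5.91% of all genes lower and 8.94% higher without overlap. Fdft1, farnesyl-diphosphate farnesyltransferase, was at 59.1 to 83.4 CPM in breast libraries (median 64.9) and 103 to 124 in lung libraries (106), with 96.8 to 136 in melanoma libraries (119). Breast and lung were fully apart (log2 fold change -0.69 ± 0.11, adjusted p = 0.000116). Stard4 and Sqle, with the ranges given above, were also apart between breast and lung, with log2 fold changes of -0.68 ± 0.12 (adjusted p = 0.000483) and -0.72 ± 0.14 (adjusted p = 0.00129).

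The other genes lower in breast than in lung libraries were spread over the pathway. Hmgcs1 (log2 fold change -0.55), Mvd (-0.65), Idi1 (-0.78) and Fdps (-1.88) belong to the mevalonate steps, with -0.74 for Fdps once the counts of its pseudogenes were added. Hsd17b7 (-0.56), Sc5d (-0.34) and Tm7sf2 (-0.78) act after squalene. Acly (-0.39) supplies acetyl-CoA, and Acat2 (-0.66) joins its units. Dhcr7 and Insig1, which stood out in melanoma, had -0.14 and -0.16 and did not pass. With 1 library left out 10 to 17 genes were lower, beside 1031 to 1902 of all genes. Acly lost its call in 9 of 18 fits, Idi1 in 2 and Sc5d in 1. Without the 3 libraries poor in long transcripts, which include breast libraries 18 and 19, 17 genes were lower. Over all genes 2317 were then lower, against 1229 with all 18 libraries.

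Within the melanoma model the level of Pmel, a melanosome protein, was set against each gene. Pmel was at 3959.6, 3147, 4774, 1585, 1072 and 810 CPM in libraries 1 to 6, so that libraries 1 to 3 lay apart from 4 to 6, while it was at 0.449 to 2.18 CPM in breast and 0.581 to 1.72 in lung libraries. Because the 6 libraries fall into these clusters, the slopes below rest largely on libraries 1 to 3 against 4 to 6. By Pearson correlation with exact permutation over 720 pairings, 0 of 15004 genes had an adjusted p under 0.05, while 54.7% had an unadjusted p under 0.05. Insig1 had the smallest p that 720 pairings allow, 0.00139 (adjusted p = 0.0579), so that this test could hardly pass a gene. By rank correlation, permuted in the same way, Insig1 and Tm7sf2 (each 1, adjusted p = 0.0223) passed. So did Mvk, Idi1, Msmo1 and Ebp (each 0.94, adjusted p = 0.0493). Only Scd2 passed in the other direction (-1, adjusted p = 0.0223). The share of all genes that passed by rank was not counted. In a fit of log2 CPM of Pmel over the 6 libraries, 12 of the 30 genes tested had a positive slope and none a negative one, beside 23.6% and 21.3% of all 15005 genes (44.9% in all). At an unadjusted p under 0.05 the number with a negative slope was also 0. The median slope of the 30 was 0.18 against 0.01 over all genes. Fdps had too few reads for this fit, and with the counts of its pseudogenes added it had a positive slope (0.62, adjusted p = 0.00436).

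Sterol enzymes made up 11 of the 12. Of the 18 sterol enzymes tested 11 passed with a positive slope (median 0.35), of the 4 regulators and transporters 1 (Insig1), and of the 8 fatty acid genes none (median -0.16). Insig1 was at 190.1, 185, 219, 142, 107 and 99.97 CPM in libraries 1 to 6 (log2 CPM slope 0.44 ± 0.06 (SE) per doubling of Pmel, adjusted p = 0.00352). Its lowest value stayed above the breast and lung ranges. Cyp51 was at 338, 304, 293, 205, 146 and 142 CPM (slope 0.51 ± 0.08, adjusted p = 0.00498). Ebp, a sterol isomerase, was at 51.4, 40.1, 50.6, 31.2, 23.8 and 22.6 CPM (slope 0.49 ± 0.06, adjusted p = 0.00298). Ebp thus spanned a range that held most of the 22.5 to 36.9 CPM of breast and the 27.4 to 45.8 CPM of lung libraries, and Ebp passed against neither.

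The other genes that passed were Mvk (slope 0.38), Mvd (0.39), Idi1 (0.42), Fdft1 (0.19), Sqle (0.35), Msmo1 (0.36), Nsdhl (0.42), Tm7sf2 (0.29) and Acat2 (0.47). With 1 of the 6 libraries left out Fdft1 lost its call in 5 fits, Tm7sf2 in 3, and Mvd, Idi1 and Sqle in 2 each. Lss (0.37, adjusted p = 0.0822) and Dhcr7 (0.33, adjusted p = 0.0595) did not pass. Both were lower in library 3 than in libraries 1 and 2, at 59.3 CPM against 123 and 96.1 for Lss and 68.2 CPM against 114 and 102 for Dhcr7. Among fatty acid genes, Fasn was at 485, 445, 116, 439, 429.9 and 370.4 CPM and Scd2 at 1482, 1555, 639, 1582, 1589.6 and 1646 CPM in libraries 1 to 6. Scd2 had a slope of -0.26 ± 0.16 (adjusted p = 0.197), and both genes were lowest by far in library 3.

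**Figure D4:**
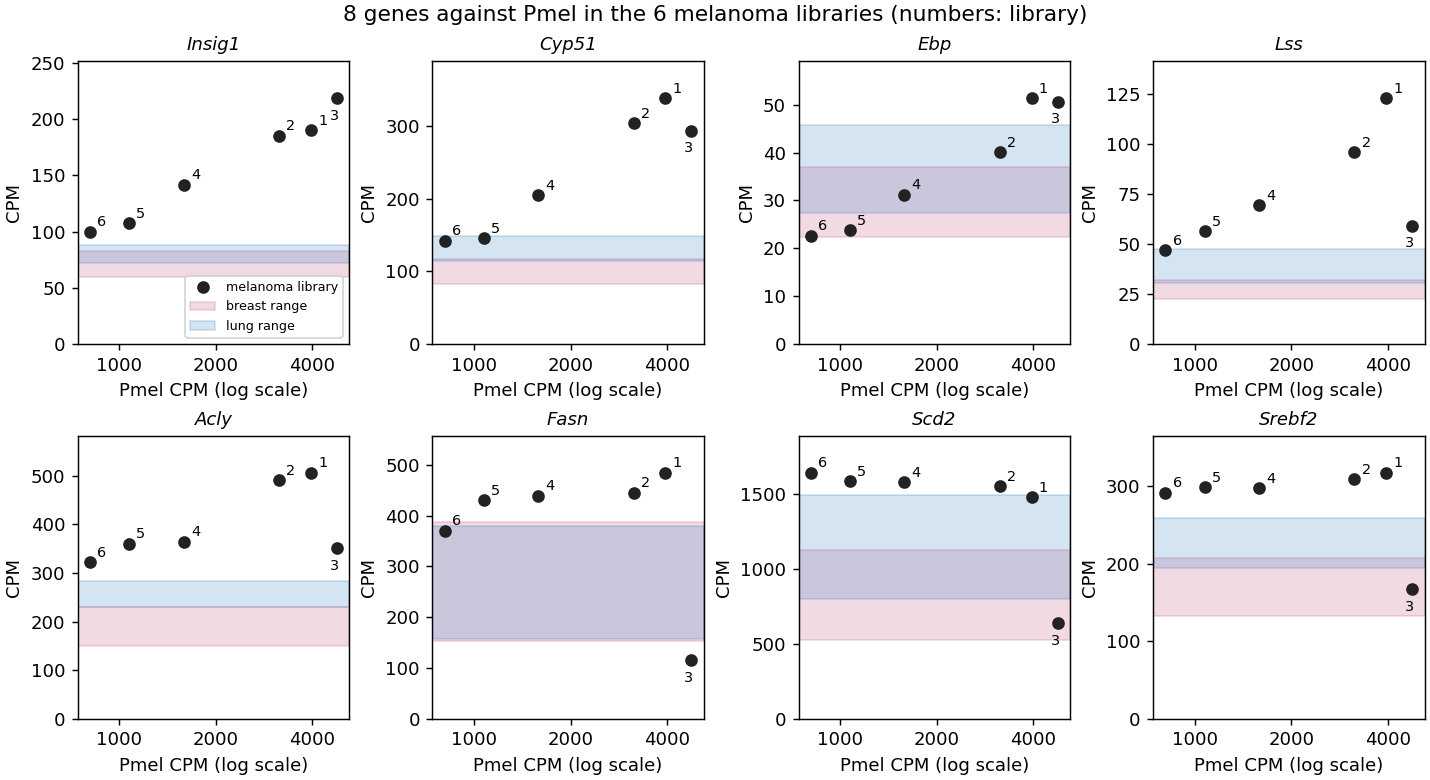
CPM of 8 genes against CPM of Pmel (log scale) in the 6 melanoma libraries, each numbered, with the ranges of the breast and lung libraries as bands. Insig1, Cyp51 and Ebp are high in libraries 1 to 3 and low in 5 and 6, while Fasn, Scd2 and Srebf2 are lowest in library 3.

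Without melanoma library 3, 19 genes had a positive slope and none a negative one. Over all 15246 genes then tested 4480 slopes were positive and 4406 negative, against 3542 and 3193 of 15005 with the 6 libraries. Lss (0.57, adjusted p = 1.71e-09), Dhcr7 (0.49, adjusted p = 1.01e-08), Acly (0.29, adjusted p = 5.85e-06), Stard4 (0.36), Hsd17b7 (0.25), Sc5d (0.11) and Fasn (0.13, adjusted p = 0.0190) then passed, while Scd2 (-0.05) and Scd1 (0.03) did not. Without library 5 or without library 6 the count of positive slopes was 7, beside 1265 and 1878 over all genes. Sums of other cell markers moved with Pmel. In melanoma libraries 1 to 3 cell cycle genes (20) summed to 2067 to 2315 CPM, against 507 to 988 in libraries 4 to 6, neuron genes (10) to 4605 to 6770 against 9119 to 10492, and oligodendrocyte genes to 4878 to 5149 against 5709 to 7026. With the mean log2 CPM of the cell cycle genes as a covariate none of the 15005 genes had a slope past the threshold in edgeR's test. An unadjusted p under 0.05 was found in that test for 5059 of these 15005 genes. Pmel and the cell cycle genes were both higher in libraries 1 to 3 than in 4 to 6, so that over these 6 libraries they cannot be told apart.

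Genes called around the pathway went in both directions. Beside the counts below, 8.51% of all genes were higher and 14.7% lower in melanoma than in lung libraries. Over breast these shares were 9.76% and 19.2%, and 23.6% had a positive and 21.3% a negative slope on Pmel. Of 13 further mevalonate and sterol genes, 2 were higher and 1 lower in melanoma than in lung libraries and 4 higher and 2 lower than in breast libraries, and 8 had a positive and 1 a negative slope on Pmel. Acat1, the mitochondrial thiolase, was higher than in both, at 193 ± 68.0 CPM in melanoma, 127 ± 25.3 in breast and 127 ± 10.2 in lung libraries (log2 fold change 0.61 over each, adjusted p = 0.0168 over lung and 0.0137 over breast). Of 12 SREBP processing genes tested, 1 was higher and 3 lower than in lung, and 2 were higher and 4 lower than in breast, while 3 had a positive and 1 a negative slope. Insig2, the sister of Insig1, averaged 109.9 ± 31.6 CPM in melanoma, 53.7 ± 6.87 in breast and 61.0 ± 2.76 in lung libraries (log2 fold change 0.85 over lung, adjusted p = 0.000288, and 1.03 over breast, adjusted p = 2.89e-05). Mbtps1, the protease that cuts SREBP in the Golgi, was lower (log2 fold change -0.38 over lung and -0.74 over breast), as was Erlin1 (-0.59 and -1.15), a lipid raft protein of the endoplasmic reticulum.

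Of 23 genes of cholesterol uptake, efflux and turnover, 3 were higher and 6 lower in melanoma than in lung libraries and 1 higher and 8 lower than in breast libraries, and 4 of 22 had a positive and 7 a negative slope on Pmel. The shares over all genes were 8.51% and 14.7%, 9.76% and 19.2%, and 23.6% and 21.3% in the same order. Nr1h3, which encodes the oxysterol receptor LXR alpha, averaged 3.27 ± 0.552 CPM in melanoma, 11.1 ± 2.03 in breast and 12.01 ± 2.81 in lung libraries (log2 fold change -1.87 over lung, adjusted p = 1.45e-07, and -1.76 over breast, adjusted p = 2.81e-07). Ch25h, an oxysterol-producing hydroxylase, averaged 1.59 ± 1.22, 23.5 ± 6.61 and 12.9 ± 7.62 CPM in the same order (log2 fold change -2.99 over lung and -3.85 over breast). Soat1, which esterifies cholesterol (-1.42 and -0.90), and Abca1, which exports it (-1.03 and -1.01), were also lower. Microglia and macrophage genes (12, with Itgam at 0 in every library) summed to 390 to 601 CPM in melanoma, 1270 to 1876 in breast and 1202 to 2044 in lung libraries, and their part in these differences was not tested.

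Of 32 further fatty acid genes tested, 4 were higher and 5 lower in melanoma than in lung libraries, and 8 higher and 5 lower than in breast libraries, and 8 had a positive and 9 a negative slope. Over all genes the shares were 8.51% and 14.7%, 9.76% and 19.2%, and 23.6% and 21.3% in the same order. Elovl7, an elongase, averaged 38.6 ± 10.7 CPM in melanoma, 22.1 ± 1.05 in breast and 18.6 ± 3.50 in lung libraries (log2 fold change 1.06 over lung, adjusted p = 6.38e-05, and 0.81 over breast, adjusted p = 0.000794), and Fads6 was higher, by log2 fold changes of 0.67 and 0.58. Acsl5, an acyl-CoA synthetase, averaged 102 ± 16.7, 222 ± 35.0 and 265 ± 69.1 CPM (log2 fold change -1.37 over lung, adjusted p = 3.09e-06, and -1.11 over breast, adjusted p = 2.75e-05). Acsl4, which activates polyunsaturated fatty acids (-0.51 and -0.43), and Fabp7, the fatty acid carrier of astrocytes (-0.91 and -1.47), were lower too. The astrocyte and microglia sums given above did not overlap between melanoma and the other models and were lower in melanoma, and their part in the Acsl4, Acsl5 and Fabp7 values was not tested.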

How the data were processed

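Poly(A)+ RNA of 18 peritumoral brain samples was sequenced as stranded libraries, per the labels' protocols. The submitters' processing notes name bcl2fastq and the build GRCm39; the sources used here do not give aligner, counter, annotation or strand setting. The deposited table gives raw counts per Ensembl gene, not normalized by the authors. Its CPM companion was not used. Symbols and transcript lengths came from GENCODE M21 by gene ID without version (52083 of 55416 IDs, 99.8% of reads). Gene positions from GENCODE M21 were used to find genes that overlap on the same or the opposite strand. Whether these overlaps hold in the annotation behind the counts was not tested. Library number 12 was not analysed here. No 2 libraries of a model were repeats (smallest chi-square per degree of freedom 2.82).

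The counts went into edgeR 4.0.16 (R 4.3.3), robust quasi-likelihood, TMM, filterByExpr, 1 coefficient per model over all 18 libraries, and separately on log2 CPM of Pmel over the 6 melanoma libraries. P-values were adjusted by Benjamini-Hochberg over all genes tested and called under 0.05. A breast, lung or melanoma brain is 1 replicate, so that p-values measure the spread between these brains. The fit was tested on simulated data. Alternatives were DESeq2 1.42.0 (its test and its size factors), library totals, no filter on low counts, 12 libraries only, covariates (transcript length slope, cell cycle and oligodendrocyte lists), fits without the 3 libraries poor in long transcripts, the melanocyte list in place of Pmel, each library left out in turn and, chosen after seeing the data, counts of annotated pseudogenes added to the gene they copy.

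The 31 genes, the lists and the tests were chosen with earlier results of these data known. Values per library are given for genes higher in melanoma than in both other models, for the 3 smallest p-values in each comparison and on Pmel, and for Scd1 and Scd2. From other lists at most 5 genes called in the same direction in melanoma against both models are named by their larger p, and some genes that this rule names are not reported here. Promoter sequences are from RefSeq (GRCm38.p6), and motifs were searched in both strands.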

Additional observations from a re-analysis of the deposited data

Results flagged for a closer look

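In 93 groups of 6 libraries (31 genes in 3 models), the gap of 1 library to the nearest other was large against the range of its group in 12, where about 5% of groups are flagged by chance. Melanoma library 3 made up 8 of them, each time as the lowest. It had 116 CPM of Fasn against 370.4 to 485 in the other 5 melanoma libraries, 639 CPM of Scd2 against 1482 to 1646, and 106 CPM of Scd1 against 207 to 230.5. Acaca was at 22.3 CPM in it (others 42.4 to 50.2), Elovl6 at 50.1 (78.4 to 86.3), Fads2 at 135 (213 to 251), Srebf2 at 168 (292 to 318) and Hmgcs1 at 222 (309.7 to 349). The remaining 4 were single values: Mvk was high in breast library 19 (33.7 CPM, others 23.9 to 26.2), Sqle was low in breast library 18 (62.4, others 71.3 to 77.0), Nsdhl was low in breast library 14 (23.7, others 28.1 to 30.6), and Fdps was high in lung library 8 (2.02, others 1.25 to 1.49).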

How the results depend on the processing

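No called member changed sign between models under any alternative run. No paired analysis was possible because the models share no replicate number. Genes called lower in breast than in lung were 20 with the 12 libraries only, 20 with the length covariate and 19 with the cell cycle covariate, beside 1851, 2472 and 1634 of all genes, against 1229. Called lower in melanoma were 1 than in lung with the cell cycle covariate (Ebp, -0.40) and 1 than in breast with the length covariate (Srebf1, -0.18). With the cell cycle covariate in edgeR's test, Stard4 lost its call over lung (0.22, adjusted p = 0.0790) and Srebf2 gained one (0.40, adjusted p = 0.0443). In that comparison 8 genes changed sign, past the threshold in neither fit. Positive slopes on Pmel were 25 with the length covariate (3307 of all genes, against 3542), 0 with the cell cycle covariate, 19 without melanoma replicate 3, and 7 without replicate 5 or 6. With 1 library left out the counts ran from 8 to 13 higher and 0 to 0 lower in melanoma over lung, 20 to 25 higher and 0 to 0 lower over breast, 0 to 0 higher and 10 to 17 lower in breast over lung, and 7 to 19 positive and 0 to 0 negative slopes. With the cell cycle covariate, under which no slope passed, the sign turned for the median (-0.64), Mvd (-0.26), Fdft1 (-0.12), Sqle (-0.54), Cyp51 (-0.25), Nsdhl (-0.15) Acat2 (-0.20), Lss (-1.36), Dhcr7 (-1.09), Srebf1 (-0.86), Acly (-0.86), Stard4 (-0.81), Hsd17b7 (-0.74) and Sc5d (-0.17). With the length covariate Hmgcs1 (0.16), Srebf2 (0.22), Fasn (0.52), Acaca (0.25), Scd1 (0.23), Scd2 (0.18), Fads2 (0.25) and Elovl6 (0.16) reversed to positive, and the Fasn slope ran from -0.41 to 0.13 with 1 library left out, positive without melanoma replicate 3. The causes were not tested. Over all genes, 2367 were higher in melanoma than in lung without the 3 libraries poor in long transcripts, against 1461 with them, 2605 against 1676 over breast (4020 without melanoma replicate 3 alone), and 2317 against 1229 were lower in breast than in lung. Low counts limit Fdps and Idi1. With pseudogene counts added, an alternative chosen after seeing the data, no call between models changed and 13 slopes were positive.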
